A study of Mus musculus with 10 samples.

Results

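The genes of 10 cytosolic heat shock proteins and their partners were followed in RNA libraries of mouse embryonic fibroblasts held at 2% or 10% CO2. They were chosen by name, with earlier results of these data known. They were the small heat shock proteins Hspb1 and Hspb8, the HSP70 Hspa8, and the HSP110 genes Hspa4 and Hsph1. With them were the J proteins Dnaja1 and Dnajb1, the co-chaperone Bag3, and the HSP90 genes Hsp90aa1 and Hsp90ab1. All 10 were found among the 78317 genes of the table, each name stood on 1 row, and all 10 passed the filter on low counts. The fibroblasts were wildtype and immortalized with T antigen, a viral protein that inactivates p53 and the retinoblastoma protein, so every library carries that change. Growth was at 37 °C and 10% CO2 in complete medium, after which cells spent 24 h at 2% CO2 (hypocapnia, 5 libraries) or at 10% CO2 (5 libraries). The series title places the comparison in the study of autophagy. Replicates 1 to 3 of each level form batch 1 and replicates 4 and 5 form batch 2, a term the labels leave undefined. Separate cultures are not stated for the replicates, so the p-values cover only the scatter among libraries, part or all of which can be technical.

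Chaperones of the cytosol hold unfolded proteins and help them reach their folded state. In the heat shock response, the factor HSF1 is freed from chaperones when unfolded proteins accumulate, binds heat shock elements in promoters and raises the transcription of many of these genes. Small heat shock proteins hold unfolding proteins without ATP, HSP70 binds and releases them in a cycle of ATP use that J proteins start and exchange factors (HSP110, BAG proteins) reset, and HSP90 completes the folding of kinases, steroid receptors and other clients. BAG3 joins HSPB8 to HSP70 in a complex that directs damaged proteins to autophagy. In fibroblasts, which carry strong actin stress fibres, HSPB1 also associates with actin and BAG3 takes part in the turnover of filamin.

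The windows from 250 bases before to 50 bases after the transcription start are shown for 4 of the genes, because they differ in heat shock elements, the sites of HSF1. The sequences are from RefSeq on build GRCm38.p6, in which 7 of the 10 genes were matched by symbol, and those of Hspa8, Hsp90aa1 and Hsp90ab1 were not matched. Hspb1 lies at chr5:135887669-135887968 on the plus strand, Hspb8 at chr5:116422815-116423114 on the minus strand, Hsph1 (the first of its 2 listed starts) at chr5:149636287-149636586 on the minus strand, and Hspa4 at chr11:53300430-53300729 on the minus strand. Each runs 5′ to 3′ on the gene's strand, and capitals mark every GAANNTTC or TTCNNGAA, the pair of inverted units from which a heat shock element is built.
Hspb1: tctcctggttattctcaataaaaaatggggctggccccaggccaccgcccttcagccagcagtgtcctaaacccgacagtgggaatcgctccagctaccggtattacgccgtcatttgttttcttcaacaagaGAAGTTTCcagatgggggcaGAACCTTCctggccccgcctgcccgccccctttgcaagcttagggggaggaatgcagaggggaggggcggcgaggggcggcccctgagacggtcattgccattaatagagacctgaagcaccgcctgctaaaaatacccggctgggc
Hspb8: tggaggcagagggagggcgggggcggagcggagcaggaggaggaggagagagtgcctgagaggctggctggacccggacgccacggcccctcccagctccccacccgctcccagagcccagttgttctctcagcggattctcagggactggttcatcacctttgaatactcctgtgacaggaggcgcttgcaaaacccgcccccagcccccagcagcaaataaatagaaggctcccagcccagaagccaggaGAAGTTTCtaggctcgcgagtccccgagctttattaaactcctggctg
Hsph1: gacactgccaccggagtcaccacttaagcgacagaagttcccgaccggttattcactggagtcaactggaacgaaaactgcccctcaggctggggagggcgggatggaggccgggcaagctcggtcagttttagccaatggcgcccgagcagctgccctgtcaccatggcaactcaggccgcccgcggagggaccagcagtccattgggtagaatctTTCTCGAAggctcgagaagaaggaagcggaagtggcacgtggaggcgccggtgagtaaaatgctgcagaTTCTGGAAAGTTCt
Hspa4: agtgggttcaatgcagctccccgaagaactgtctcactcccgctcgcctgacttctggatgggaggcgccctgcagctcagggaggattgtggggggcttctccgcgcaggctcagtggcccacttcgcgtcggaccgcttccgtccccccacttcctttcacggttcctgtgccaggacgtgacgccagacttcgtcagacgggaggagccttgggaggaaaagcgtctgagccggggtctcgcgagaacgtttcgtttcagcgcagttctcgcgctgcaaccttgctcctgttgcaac

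Hspb1 had a pair beginning 117 bases and another 97 bases before its start. Hspb8 had 1 pair, which began 2 bases after the start. Hsph1 had a pair 33 bases before the start and overlapping pairs beginning 36 and 41 bases after it, which together make a triplet of alternating units. Hspa4 had none. Both pair motifs read the same on the 2 strands, so a search of 1 strand covers both. Of the 7 matched genes, 5 held a pair in at least 1 listed window (Hspb1, Hspb8, Hsph1, Dnaja1 and Bag3), against 17.0% of the 27025 genes and 15.1% of the 32851 windows in the table. The full triplet was found in 1 of the 7, Hsph1, against 0.662% of all genes and 0.603% of all windows. As the genes were chosen by name as heat shock genes, these shares only describe them. CCAAT, the box bound by NF-Y, and TATAAA were searched on both strands. CCAAT was present in 3 of the 7, against 41.1% of all genes, and TATAAA was in 0 of the 7, against 15.7%. A match is only a run of letters, and no binding was measured.

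Depth was very uneven. In batch 1 every library at 2% CO2 was shallower than every one at 10% CO2. In batch 2 the libraries at 2% CO2 were the deeper ones. Total counts at 2% CO2 were 2621598, 178676, 506405, 12354538 and 12046407 in replicates 1 to 5, against 5694026, 8985537, 8101893, 10607076 and 892318 at 10% CO2. Thus 1 count was worth 5.60 CPM (counts per 1000000 counts of the library) in the shallowest library and 0.0809 CPM in the deepest. The 10 genes together took between 0.408% and 0.521% of the counts at 2% CO2, and between 0.543% and 0.597% at 10% CO2, with no overlap between the levels. The 9 fibroblast markers summed to between 4688 and 8751 CPM at 2% CO2 and to between 8563 and 13260 CPM at 10% CO2. They did not move together. Col3a1 was at 61.6 to 146 CPM at 2% CO2 and 245 to 298 CPM at 10% CO2, S100a4 at 99.9 to 164 CPM at 2% CO2 and 40.2 to 91.2 CPM at 10% CO2, and Fn1 overlapped, at 826 to 1128 CPM at 2% CO2 and 794 to 1355 CPM at 10% CO2. Pdgfra was near 0, at 0 to 5.92 CPM at 2% CO2 and 0.779 to 1.93 CPM at 10% CO2. The 9 markers of other cell types summed to between 5.15 and 36.4 CPM at 2% CO2 and to between 6.96 and 11.8 CPM at 10% CO2, the highest in the shallowest library, and the macrophage gene Adgre1 was at 0 in all 10. The part of these shifts in the results was not tested. In bulk RNA, fewer cells of a type and less RNA per cell cannot be told apart.

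Most of the 10 genes for cytosolic heat shock proteins were lower at 2% CO2. Of them, 7 fell, 0 rose and 3 did not pass the test (Hspa4, Hsp90aa1 and Dnajb1), at an adjusted p under 0.05 in edgeR's quasi-likelihood test with batch in the model and Benjamini-Hochberg adjustment over 13198 genes. Among all tested genes, 6.73% were called lower and 5.30% higher. The 10 genes were chosen with earlier results of these data known, so their share only describes them. All 10 log2 fold changes (2% over 10% CO2) were negative, with a median of -0.42, against 0.00 over all tested genes. Fold changes come from the fit with TMM scaling and batch, while the CPM printed here are scaled to library totals only. A fold change therefore need not equal the ratio of the mean CPM. Within batch 1 the median of the 10 was -0.46, and within batch 2 it was -0.37. All calls together numbered 888 lower and 700 higher with TMM scaling, and 614 lower and 1031 higher when scaled to library totals. With that scaling the median of all genes moved to 0.07, and 4 of the 10 genes were called lower (Hspb1, Hspb8, Hspa8 and Hsph1). Without the 3 libraries under 1000000 counts, 5 were called lower, Hsp90ab1 and Dnaja1 no longer among them.

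**Figure D1:**
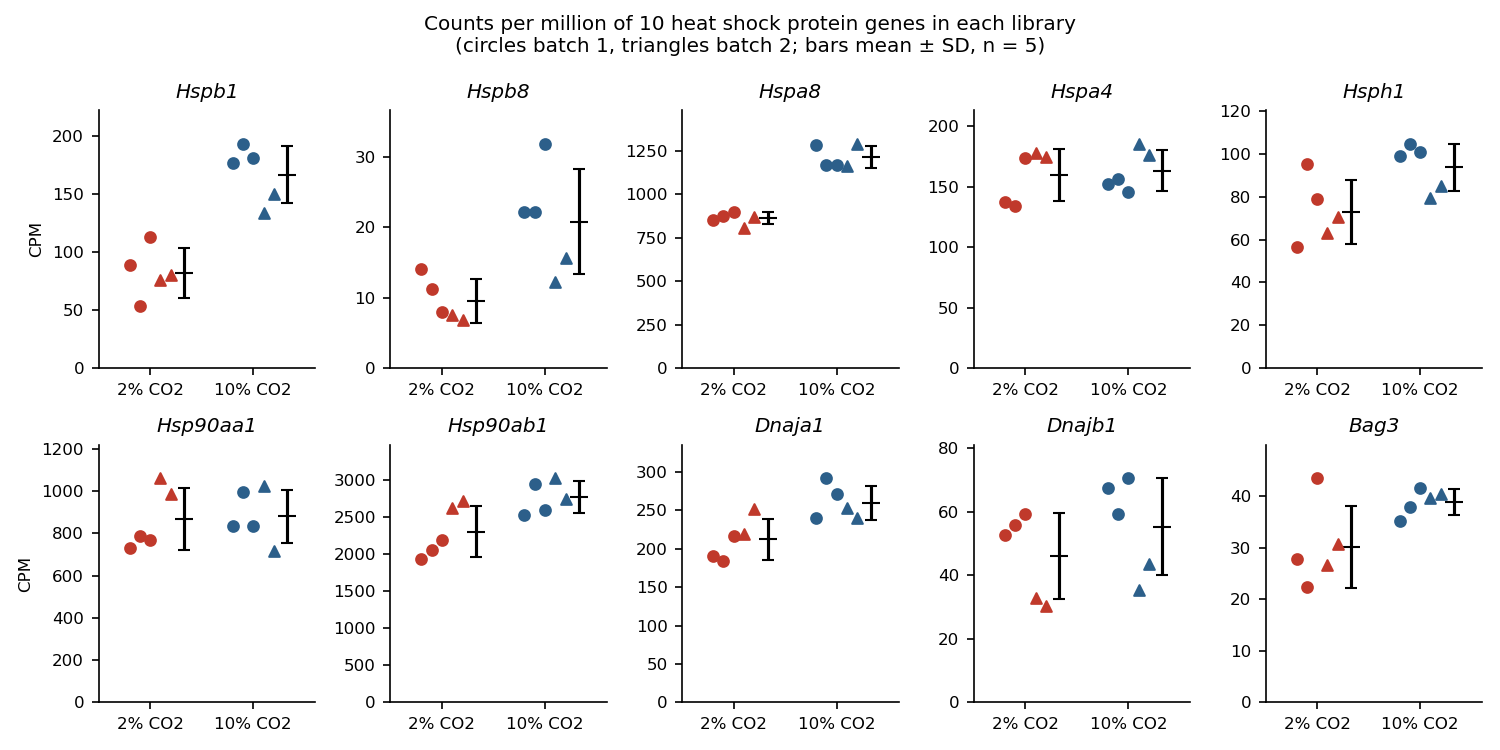
CPM of the 10 genes in each library on linear axes from 0, 1 panel per gene, with the 5 libraries at 2% CO2 left and the 5 at 10% CO2 right. Circles are batch 1, triangles batch 2, and the bar beside them is the mean ± SD. In Hspb1 and Hspa8 every library at 2% CO2 lies below every library at 10% CO2, while Hspa4 and Hsp90aa1 overlap.

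The small heat shock proteins had the largest fold changes of the 10. Hspb1 (HSP25 in the mouse, HSP27 in human), an ATP-independent holdase that also acts on actin, was at 88.3, 53.2, 113, 75.7 and 80.5 CPM in replicates 1 to 5 at 2% CO2, against 176, 193, 181, 133 and 149.6 CPM at 10% CO2. The lowest library at 10% CO2 stood above the highest at 2% CO2, which was a shallow one. Hspb1 averaged 82.0 ± 21.5 CPM under 2% CO2, against 166 ± 24.4 CPM under 10% CO2 (n = 5 each, ± SD). Its log2 fold change was -1.005 ± 0.11 (± SE; 95% interval -1.24 to -0.77; edgeR adjusted p = 2.45e-05), so it fell by 50.2%. Its value was -1.03 in batch 1 and -0.94 in batch 2. In the shallowest library the value rests on about 10 reads, with an exact Poisson 95% interval of 26.8 to 103 CPM, and such intervals cover counting error only.

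Hspb8 (HSP22), the partner of BAG3, had the fewest counts of the 10 genes. It stood at 14.1, 11.2, 7.90, 7.53 and 6.81 CPM in replicates 1 to 5 at 2% CO2, against 22.1, 22.1, 31.8, 12.3 and 15.7 CPM at 10% CO2. The levels overlapped over all libraries but not within either batch, and batch 2 was lower at both levels. How many of all genes separate within a batch was not counted, here or for the genes below. Its mean was 9.51 ± 3.08 CPM under 2% CO2, against 20.8 ± 7.49 CPM under 10% CO2 (n = 5 each, ± SD), and its log2 fold change was -0.98 ± 0.18 (± SE, adjusted p by edgeR = 0.00165). The 2 shallow libraries at 2% CO2 held 2 and 4 counts, with Poisson intervals of 1.36 to 40.4 CPM and 2.15 to 20.2 CPM.

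Counts of Hspb1 were partly fractional in 7 of the 10 libraries. How the fractions arose was not stated, and with a near-identical copy in the table its level is uncertain. The processed pseudogene Hsp25-ps1 carried between 12.6% and 31.6% as many counts as Hspb1. It averaged 16.9 ± 7.24 CPM under 2% CO2, against 31.7 ± 10.6 CPM under 10% CO2 (n = 5 each, ± SD). Its log2 fold change was -0.94 ± 0.13 (± SE, adjusted p by edgeR = 0.000145). With the pseudogene's counts added, the log2 fold change of Hspb1 was -1.01. Fractional counts occurred in 10 libraries for Hspa8 and Hsp90aa1, in 9 for Hsp90ab1 and Dnaja1, in 3 for Hspa4 and in 1 for Hsph1. The counts of Hspb8, Dnajb1 and Bag3 were whole in every library.

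Of the HSP70 and HSP110 genes, Hspa8 and Hsph1 fell and Hspa4 did not pass the test. Hspa8, the constitutive HSC70 that folds new proteins and carries clients to chaperone-mediated autophagy, was at 854, 878, 899.8, 807 and 869.9 CPM in replicates 1 to 5 at 2% CO2. At 10% CO2 it was at 1282, 1169, 1171, 1161 and 1291 CPM, so the levels did not overlap and replicates were tight at both. The means were 862 ± 34.7 CPM under 2% CO2, against 1215 ± 65.4 CPM under 10% CO2 (n = 5 each, ± SD). Its log2 fold change was -0.58 ± 0.10 (± SE, 95% interval -0.79 to -0.38, edgeR adjusted p = 0.000639). Hspa8 fell by 33.3%, and was the only one besides Hspb1 that was called in each batch taken alone. Of all tested genes, 1.99% were lower at 2% CO2 with no overlap between the libraries.

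Hsph1 (HSP105), an HSP110 that exchanges the nucleotide of HSP70 and is induced by heat, was at 56.5, 95.1, 79.0, 63.1 and 70.3 CPM in replicates 1 to 5 at 2% CO2, against 99.1, 105, 101, 79.4 and 85.2 CPM at 10% CO2. The levels overlapped over all libraries but not within a batch. Hsph1 averaged 72.8 ± 15.04 CPM under 2% CO2, against 93.8 ± 10.9 CPM under 10% CO2 (n = 5 each, ± SD). In the fit its log2 fold change was -0.52 ± 0.11 (± SE, adjusted p by edgeR = 0.00469). Hspa4 (APG-2), the other HSP110 here and largely constitutive, was at 137, 134, 174, 178 and 174 CPM in replicates 1 to 5 at 2% CO2, against 152, 156, 145, 185 and 176 CPM at 10% CO2. Its levels overlapped in both batches, and its log2 fold change was -0.11 ± 0.09 (± SE; 95% interval -0.31 to 0.09; edgeR adjusted p = 0.495). The interval leaves room for a fall of up to 0.31 on the log2 scale.

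Both J proteins, which deliver clients to HSP70 and trigger its ATP use, had negative values, and 1 passed the test. Dnaja1 (HDJ2) was at 190.3, 184, 217, 219 and 251 CPM in replicates 1 to 5 at 2% CO2, against 240.3, 292, 271, 254 and 240.3 CPM at 10% CO2. Only replicate 5 at 2% CO2 reached into the range at 10% CO2. The means were 212 ± 26.7 CPM under 2% CO2, against 259 ± 22.05 CPM under 10% CO2 (n = 5 each, ± SD), and the log2 fold change was -0.35 ± 0.10 (± SE, adjusted p by edgeR = 0.0287). Of the 7 calls it was the one lost most often. Leaving out a single library ended it in 7 of 10 cases, namely replicates 1, 2, 3 or 4 at 2% CO2 and replicates 2, 3 or 4 at 10% CO2, with adjusted p between 0.0550 and 0.0714.

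Dnajb1 (HSP40), the heat-inducible J protein, was at 52.6, 56.0, 59.2, 32.9 and 30.2 CPM in replicates 1 to 5 at 2% CO2, against 67.6, 59.3, 70.6, 35.4 and 43.7 CPM at 10% CO2. Batch 2 was far below batch 1 at both levels, and within each batch every library at 2% CO2 was below every one at 10% CO2. Its means were 46.2 ± 13.6 CPM under 2% CO2, against 55.3 ± 15.3 CPM under 10% CO2 (n = 5 each, ± SD). The log2 fold change was -0.32 ± 0.11 (± SE; 95% interval -0.56 to -0.09), with an edgeR adjusted p of 0.0681. Without replicate 2 at 10% CO2 it was called, at -0.37 with an adjusted p of 0.0335.

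Bag3, the exchange factor that links HSP70 to small heat shock proteins and to autophagy, was at 27.8, 22.4, 43.4, 26.5 and 30.6 CPM in replicates 1 to 5 at 2% CO2, against 35.1, 37.8, 41.5, 39.7 and 40.3 CPM at 10% CO2. Replicate 3 at 2% CO2, a shallow library with 22 counts of Bag3 (Poisson interval 27.2 to 65.8 CPM), was the highest of all 10, and the other 4 at 2% CO2 lay below every library at 10% CO2. Bag3 averaged 30.2 ± 7.99 CPM under 2% CO2, against 38.9 ± 2.49 CPM under 10% CO2 (n = 5 each, ± SD). In the fit its log2 fold change was -0.47 ± 0.13 (± SE, adjusted p by edgeR = 0.0205). Its call was lost without replicate 4 at 2% CO2 (adjusted p = 0.0928), without replicate 3 at 10% CO2 (0.0533) and without replicate 4 at 10% CO2 (0.136).

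Of the HSP90 genes, which complete the folding of signalling proteins, 1 fell. Hsp90ab1 (HSP90 beta, the constitutive form) was at 1929, 2047, 2192, 2612 and 2717 CPM in replicates 1 to 5 at 2% CO2, against 2523, 2937, 2588, 3018 and 2736 CPM at 10% CO2. The levels overlapped over all libraries and not within a batch. The means were 2299.5 ± 348 CPM under 2% CO2, against 2760.5 ± 214 CPM under 10% CO2 (n = 5 each, ± SD), and the log2 fold change was -0.36 ± 0.10 (± SE, adjusted p by edgeR = 0.0199). The call was lost without replicate 4 at 10% CO2, with an adjusted p of 0.0619.

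Hsp90aa1 (HSP90 alpha, the stress-inducible form) was at 733, 788, 770.3, 1061 and 984 CPM in replicates 1 to 5 at 2% CO2, against 834, 994, 836, 1022 and 716 CPM at 10% CO2. In batch 1 every library at 2% CO2 was below every one at 10% CO2, whereas in batch 2 the levels overlapped. Its means were 867 ± 146 CPM under 2% CO2, against 880.3 ± 127 CPM under 10% CO2 (n = 5 each, ± SD). In the fit its log2 fold change was -0.12 ± 0.11 (± SE, 95% interval -0.36 to 0.12, edgeR adjusted p = 0.567). The value was -0.27 in batch 1 and 0.13 in batch 2. The interaction of CO2 with batch had an unadjusted p of 0.0771 for this gene.

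**Figure D2:**
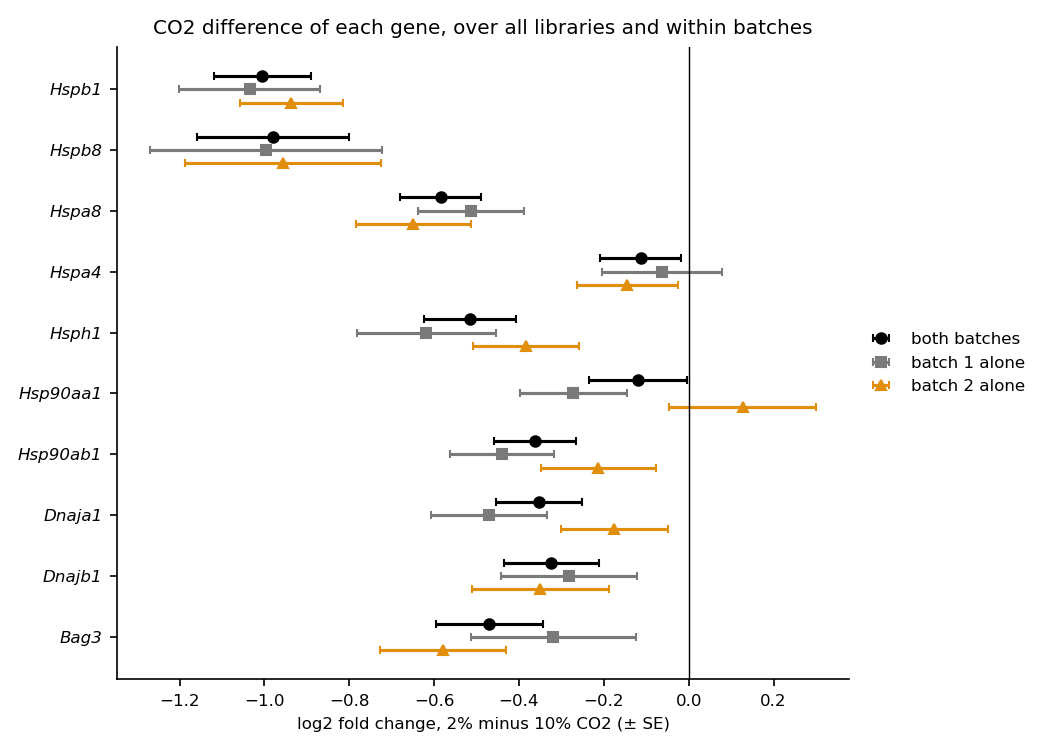
Log2 fold changes (2% over 10% CO2) of the 10 genes on the horizontal axis, from all libraries (circles), batch 1 alone (squares) and batch 2 alone (triangles), with bars of ± 1 SE. The values over all libraries run from -1.005 for Hspb1 to -0.11 for Hspa4, and of those within a batch the only one above 0 is Hsp90aa1 in batch 2, at 0.13.

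The batches were fitted alone as well. Depth went with CO2 level within each batch, in opposite directions, and its part within a batch was not tested. In batch 1, with 3 libraries a level, 6 of the 10 genes were called lower (the 7 above without Bag3), against 3.56% of 12275 tested genes. In batch 2, with 2 libraries a level, Hspb1 (adjusted p = 0.0140) and Hspa8 (0.0496) were called lower, against 0.978% of 14627 tested genes. The interaction of CO2 with batch was called by edgeR for 0 genes (0.00% of 13198), while 1155 genes and 0 of the 10 had an unadjusted p under 0.05. Between the batches themselves, 36.0% of tested genes were called. Among the 10, Hspb8 was lower in batch 2 than in batch 1 by a log2 difference of -0.94 ± 0.18 (± SE, adjusted p by edgeR = 0.000548), Dnajb1 by -0.82 ± 0.11 (2.62e-05) and Hspb1 by -0.32 ± 0.11 (0.0326).

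Ratios of 2 genes within the same library do not depend on how libraries are scaled. They were compared for 7 gene pairs by exact two-sided permutation of the CO2 labels within batches, with 120 arrangements, a smallest possible p of 0.0167 and Benjamini-Hochberg adjustment over the 7. The pairs were chosen after the data were seen. The adjustment does not cover that choice, so the p-values describe the separation of the libraries and are not independent evidence. They are ratios of counts, not corrected for transcript length, so only their difference between CO2 levels is read. Hsp90ab1 stood at 2.46 to 2.85 counts per count of Hsp90aa1 at 2% CO2 and at 2.95 to 3.82 at 10% CO2, a log2 difference of -0.25 with no overlap (adjusted p = 0.0233). Without replicate 4 at 2% CO2 that difference was -0.20 (adjusted p = 0.0933). The beta form was lower relative to the alpha form over all libraries, and the call depended on 1 library.

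Hspa8 fell relative to Hspa4 by 0.46 on the log2 scale (adjusted p = 0.0233), with 4.54 to 6.54 counts per count of Hspa4 at 2% CO2, against 6.26 to 8.41 at 10% CO2. Hspb1 fell relative to Hspa8 by 0.55 (adjusted p = 0.0233), with 0.0606 to 0.125 at 2% CO2 and 0.115 to 0.165 at 10% CO2. The lowest ratio was that of the shallowest library, replicate 2 at 2% CO2, and without it the difference was -0.37 (adjusted p = 0.0194). Hsph1 relative to Hspa4 had a difference of -0.34 that did not pass (adjusted p = 0.0972), and it passed without replicate 2 at 2% CO2 (-0.47, adjusted p = 0.0194). Dnaja1 relative to Dnajb1 had a difference of -0.03 (adjusted p = 0.867), with 3.29 to 8.32 at 2% CO2 and 3.55 to 7.17 at 10% CO2. The same test was made against the chaperones of the endoplasmic reticulum (ER). Hspa5 (BiP, the HSP70 of the ER) fell relative to Hspa8 by 0.64, with 0.360 to 0.472 at 2% CO2 and 0.617 to 0.722 at 10% CO2, and Hsp90b1 (GRP94, the HSP90 of the ER) fell relative to Hsp90ab1 by 0.63, with 0.175 to 0.282 at 2% CO2 and 0.310 to 0.418 at 10% CO2. Both had no overlap and an adjusted p of 0.0233.

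**Figure D3:**
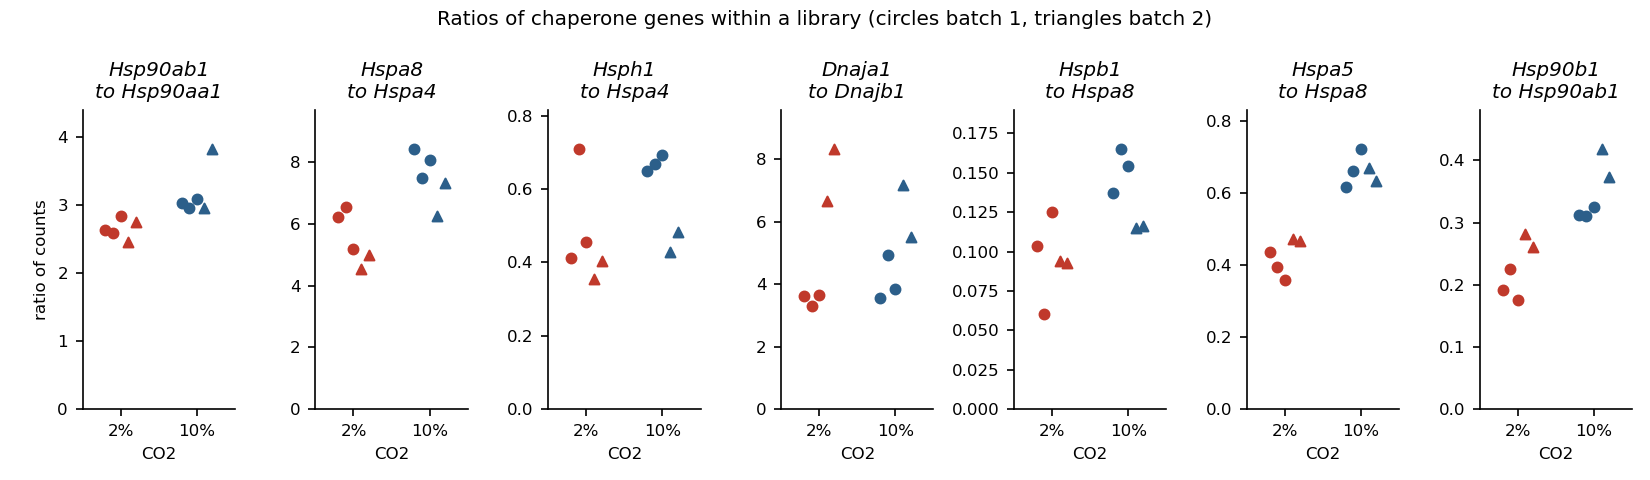
Ratio of counts between 2 chaperone genes in each library on linear axes from 0, 1 panel per ratio, with 2% CO2 left and 10% CO2 right, circles for batch 1 and triangles for batch 2. The levels do not overlap for Hsp90ab1 to Hsp90aa1, Hspa5 to Hspa8 and Hsp90b1 to Hsp90ab1, and they overlap for Dnaja1 to Dnajb1.

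The other genes of the same machinery are read against the 6.73% called lower and 5.30% called higher over all tested genes. These lists too were chosen with earlier results of these data known. Of the heat shock factors, Hsf1 and Hsf2 could be tested, and neither passed. Hsf1, the main activator of the heat shock response, had a log2 fold change of 0.25 ± 0.13 (± SE, adjusted p by edgeR = 0.232) with 53.9 ± 8.18 CPM under 2% CO2, against 42.7 ± 15.1 CPM under 10% CO2, and Hsf2 had -0.10 ± 0.12 (0.778). The heat-inducible HSP70 genes, which HSF1 drives strongly, did not pass the test. Hspa1b was at 31.5 ± 5.23 CPM under 2% CO2, against 40.5 ± 10.5 CPM under 10% CO2 (log2 fold change -0.36 ± 0.15, adjusted p = 0.147), and was called without replicate 5 at 10% CO2 (-0.47, adjusted p = 0.0402). Hspa1a was at 5.69 ± 2.85 CPM under 2% CO2, against 5.70 ± 1.21 CPM under 10% CO2 (-0.15 ± 0.25, adjusted p = 0.840). These 2 genes are nearly identical and had fractional counts, so the split between them is uncertain. Of the 7 other HSP70 and HSP110 genes tested, which include them, 0 passed and the median was -0.20. Hspa2 missed at -0.55 ± 0.18 (adjusted p = 0.0508) with 6.72 ± 1.01 CPM under 2% CO2, against 9.67 ± 0.832 CPM under 10% CO2, and was called without replicate 1 at 2% CO2 (-0.71, adjusted p = 0.0360).

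Of the 8 other small heat shock protein genes, 2 could be tested. Hspb6 (HSP20), a partner of BAG3 in muscle, fell by 0.82 ± 0.15 on the log2 scale in the fit (adjusted p = 0.00184). Its means were 31.4 ± 16.2 CPM at 2% CO2, against 44.6 ± 7.73 CPM at 10% CO2, and the levels overlapped. The call was lost without the batch term (adjusted p = 0.0634) and in batch 2 alone (0.0708). Cryab (alpha-B crystallin) had 0.05 ± 0.15 (0.907). Of 17 other cytosolic J proteins, 1 fell, Dnajb4, by 0.52 ± 0.12 (adjusted p = 0.00704), and the median of the 17 was 0.01. The call of Dnajb4 was lost without the batch term (edgeR adjusted p = 0.0533), in batch 2 alone (0.185) and with each library thinned to the shallowest (0.837). None of the 17 rose here, while 2 were called higher with DESeq2 or with library totals. Of 8 other partners of the HSP70 cycle, 1 fell. This was Bag2, an exchange factor that restrains the ubiquitin ligase CHIP, at 28.8 ± 4.87 CPM under 2% CO2, against 49.3 ± 7.48 CPM under 10% CO2 without overlap (log2 fold change -0.89 ± 0.10, adjusted p = 4.05e-05). Of 18 HSP90 cochaperones, 2 fell and the median was -0.07, and with library totals 1 was called lower and 1 higher. Fkbp4 (FKBP52, which serves steroid receptors) fell by 0.47 ± 0.11 (adjusted p = 0.00745), and not without the libraries under 1000000 counts (-0.32, adjusted p = 0.0768). Tomm34, which links HSP70 and HSP90 to mitochondrial import, fell by 0.40 ± 0.12 (0.0425). That call was lost without replicates 1, 3 or 5 at 2% CO2 or replicates 1, 3 or 4 at 10% CO2, with adjusted p between 0.0738 and 0.266. The 8 subunits of TRiC, the ring that folds actin and tubulin, gave 0 calls and a median of -0.05, with the smallest adjusted p at Tcp1 (-0.15, 0.372). The shares called lower were 5.88% of the J proteins and 11.1% of the HSP90 cochaperones, near the share over all genes, and the shorter lists are too small to set against it.

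The lists of ER and mitochondrial chaperones included calls in opposite directions. Over all tested genes, 6.73% were called lower and 5.30% higher, with a median of 0.00. Both lists are short and were chosen with earlier results of these data known, so their counts only describe them. Of 14 ER chaperones, 7 fell and 0 rose, with a median of -0.40. Hspa5 was at 366 ± 31.6 CPM under 2% CO2, against 801 ± 30.8 CPM under 10% CO2 (log2 fold change -1.20 ± 0.10, adjusted p = 1.14e-06), and Hsp90b1 at 532 ± 177 CPM under 2% CO2, against 964 ± 188 CPM under 10% CO2 (-0.99 ± 0.11, 1.55e-05). Calr, the calreticulin of glycoprotein folding, was at 422 ± 32.5 CPM under 2% CO2, against 719 ± 47.3 CPM under 10% CO2 (-0.85 ± 0.10, 2.45e-05). Sdf2l1, a partner of BiP, was at 28.6 ± 7.20 CPM under 2% CO2, against 63.3 ± 16.7 CPM under 10% CO2 (-1.11 ± 0.14, 8.07e-05). All 4 had no overlap between the levels. Of 13 genes on the mitochondrial list, 3 rose and 0 fell, with a median of 0.17. They were Grpel2 (0.50 ± 0.12, adjusted p = 0.0138) and Grpel1 (0.37 ± 0.10, 0.0288), exchange factors of mitochondrial HSP70, and the protease subunit Clpp (0.43 ± 0.12, 0.0210). The other 10 were not called, among them Hspa9 (0.12, adjusted p = 0.471), Hspd1 (-0.04, 0.886), Hspe1 (0.01, 0.993) and Trap1 (0.02, 0.959). Without replicate 1 at 2% CO2 none of the 3 that rose passed, with adjusted p of 0.0748, 0.172 and 0.144. Clpp was also lost without replicate 4 at 2% CO2 or replicates 3 or 4 at 10% CO2, and Grpel1 without replicate 4 at 2% CO2 or replicates 1 to 4 at 10% CO2, with adjusted p between 0.0528 and 0.115.

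**Figure D4:**
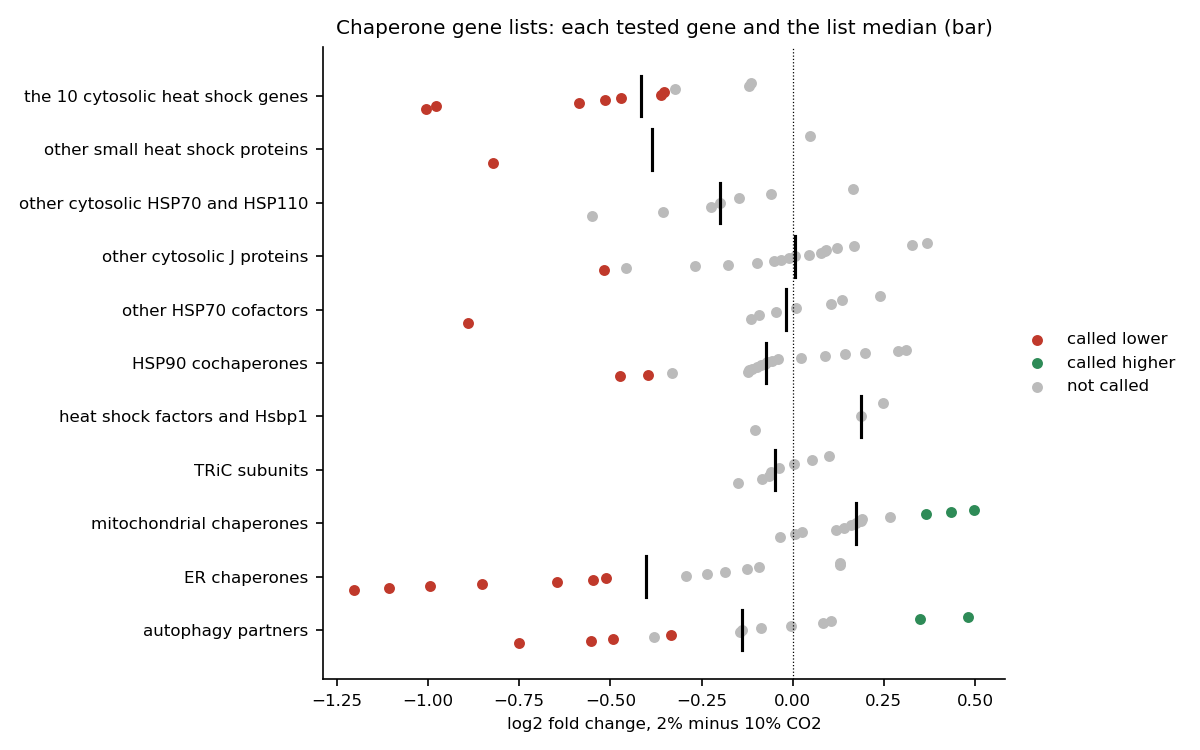
Log2 fold changes (2% over 10% CO2) of the tested genes of each list, 1 row per list (the heat shock factors include their binding protein Hsbp1), with red points for genes called lower by edgeR, green for genes called higher, grey for the others and a bar for the list's median. The 10 heat shock protein genes and the ER chaperones have medians of -0.42 and -0.40, the mitochondrial chaperones 0.17, and the TRiC subunits -0.05.

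Partners of BAG3 and of chaperone-linked autophagy included calls in both directions. Of 13 tested, 4 fell and 2 rose, against 6.73% called lower and 5.30% called higher over all tested genes. The list is short and was chosen with earlier results of these data known, so these counts only describe it. With library totals 2 of the 13 were called lower. Only 1 was called lower without replicate 1 at 2% CO2, 1 without replicate 4 at 2% CO2 and 2 without replicate 4 at 10% CO2. Flna, the filamin A that BAG3 hands to autophagy, fell by 0.55 ± 0.10 on the log2 scale (adjusted p = 0.00195). Its means were 487 ± 77.9 CPM at 2% CO2, against 667 ± 61.4 CPM at 10% CO2. Ubqln2, a shuttle between chaperones and the proteasome, fell by 0.49 ± 0.13 (adjusted p = 0.0179), and not without replicates 1 or 4 at 2% CO2 or replicate 4 at 10% CO2 (adjusted p between 0.0586 and 0.0956). Lamp2, the lysosomal membrane protein whose A isoform receives clients of HSPA8, rose by 0.48 ± 0.10 (adjusted p = 0.00315). Its means were 260.0 ± 61.2 CPM at 2% CO2, against 175 ± 36.3 CPM at 10% CO2. The counts do not separate its isoforms. The calls of Flna and Lamp2 were lost without the batch term (edgeR adjusted p = 0.0503 and 0.224). They were also lost in batch 2 alone (0.174 and 0.0910) and with each library thinned to the shallowest (0.138 and 0.252). Sqstm1 (p62), the autophagy receptor that binds ubiquitin, rose by 0.35 ± 0.09 (adjusted p = 0.0192), and not without replicate 1 at 2% CO2 or replicates 3 or 4 at 10% CO2 (adjusted p between 0.0561 and 0.0704).

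The promoter pairs can be set beside these changes. All 5 matched genes with a heat shock pair in a listed window (Hspb1, Hspb8, Hsph1, Dnaja1 and Bag3) were called lower, and the 2 without one, Hspa4 and Dnajb1, were not. That split rests on the threshold and leaves out the genes without a matched window. Of these, Hspa8 and Hsp90ab1 were called lower and Hsp90aa1 was not. Dnaja1 and Dnajb1 had similar log2 fold changes, -0.35 (edgeR adjusted p = 0.0287) and -0.32 (0.0681). The call of Dnaja1 held in 3 of 10 fits that left out 1 library, and of its listed windows only the first held a pair. Whether the pairs bear on the changes was not tested. Other chaperones were looked up after their values were known. Hspb6 and Dnajb4, each in the second listed window, and Fkbp4 held a pair and fell. Hspa1a and Hspa1b each had a pair 104 bases before the start and were not called. Bag2, Hspa5 and Hsp90b1 had none and fell.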

How the data were processed

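Messenger RNA of 10 libraries was sequenced, 5 at 2% CO2 and 5 at 10% CO2. Per the submitters' processing notes, reads were handled with STAR 2.7.11, featureCounts (Subread 2.1.1), SAMtools 1.22.1 and MultiQC 1.32 on GRCm39, with settings and strand handling not given in the sources used here. What the authors deposited are estimated counts for each gene, without normalization. Between 71.0% and 79.2% of a library's nonzero values were whole (tolerance 1e-06), with the origin of the fractions not stated. The authors' second table holds CPM, which matched counts divided by library totals to within 4.8e-05 and is what the text prints as CPM. In the table, 92 spike-in rows, all at 0, were left out.

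After rounding, genes were filtered with filterByExpr (count 10, total 15, grouped by CO2), scaled by TMM and fitted with edgeR 4.0.16 (R 4.3.3), using its robust quasi-likelihood method with terms for batch and CO2. Calls needed an adjusted p (Benjamini-Hochberg, two-sided) under 0.05. The standard error is the log2 fold change over the root of F. Named were all 10 genes, up to 4 called genes of each other list by adjusted p (the smallest where none was called), and Hspa1a, Hspa1b, Hsf1 and Hsf2. Cryab was named beyond that rule, after its values were seen. Members and lists were chosen with earlier results of these data known. The ratios, the rounding down and the addition of Hsp25-ps1 were chosen after seeing the data. Motifs were searched in RefSeq windows of build GRCm38.p6, another build than that of the counts, and used for their sequence only.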

Additional observations from a re-analysis of the deposited data

How the results depend on the processing

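The count of 7 heat shock protein genes called lower was also 7 with RLE factors, DESeq2 1.42.0, limma-voom (limma 3.58.1), a filter of 10 CPM in 5 libraries, counts rounded down and Hsp25-ps1 added. It was 6 without a filter and 6 in batch 1 alone. It was 4 with library totals, 3 without the batch term (Hspb1, Hspb8 and Hspa8), 2 in batch 2 alone and 1 of 7 tested genes (Hspa8) when each library was thinned to 178428 counts, where Hspb1 stood at -0.55 (adjusted p = 0.197). Leaving out 1 library at a time gave 4 to 7, the 4 without replicate 4 at 10% CO2. In these fits Hspb1, Hspb8, Hspa8 and Hsph1 passed in 10 of 10. No setting called any of the 10 higher. Signs turned for Hsp90aa1 (0.13), Hspa1a (0.12) and Hsf2 (0.021) in batch 2 alone. Leaving out 1 library gave -0.29 to 0.025 for Hspa1a, above 0 without replicate 1 at 2% CO2, and -0.13 to 0.073 for the log2 ratio of Dnaja1 to Dnajb1, above 0 without replicate 2 of either level. None of these values passed its test, and the cause was not tested. With the replicate number as a block (replicate block), 7 of the 10 were again lower and calls over all genes numbered 1927, against 1588. After removing level and batch means, same-numbered libraries correlated at 0.17, 0.10, 0.044, 0.19 and 0.19, so the numbers were not treated as pairing. With only level means removed, so that batch remained, 4 of 5 libraries at 2% CO2 and 3 of 5 at 10% CO2 were closest to their own number. Depth limits Hspb8 and Bag3 most, at 2 and 4 counts in the shallowest library.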
